A study of Homo sapiens with 2 samples.

Results

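The loci described here are the genes of the human genome that carry a numbered placeholder name of the form LINC followed by digits, given to long intergenic noncoding RNAs. They were chosen by name alone, as the rows of both deposited expression tables whose gene symbol has that form. The rule uses no measured value, but earlier results of these data were known when it was set. The rule took 335 of 56586 rows in each table, under 330 of 51640 gene symbols. Of the rows, 4 are copies on Y of pseudoautosomal genes and were listed at 0. LINC00273 had 2 rows, which were summed. The measurements came from 2 libraries of HCT116, an established line of human colon carcinoma cells with epithelial character, grown in medium with serum. The design text calls them biological replicates; the labels name them PF and PJ and put them in the same group. RNA was sequenced as read pairs, and each gene was given as FPKM, the fragments assigned to it per kilobase of transcript, in proportion to all fragments mapped, with a lower and an upper 95% bound. The bounds are of 1 library at a time and do not measure how far cultures differ. The number of fragments behind the values is unknown. With 1 library on each side, the difference between PF and PJ has no test, and no p-value is given.

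Long intergenic noncoding RNAs are mostly made by RNA polymerase II, and are capped, spliced and polyadenylated like messenger RNAs. As a class they are known for low levels and for expression in few tissues. A number is given while the function is unknown, and a locus is renamed when a role, a small protein or a neighbouring gene is recognised. Some have been found to code for microproteins, some act in the nucleus near their own gene, some bind proteins in the cytoplasm, and some are the precursors of microRNAs or small nucleolar RNAs.

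The 4 loci with the highest mean level that have a promoter in the RefSeq table are shown first. They held most of the deposited FPKM summed over the LINC-named loci. Each sequence runs 5′ to 3′ from 250 bases before to 50 bases after the annotated start, 300 bases on GRCh38.p14, with every CG dinucleotide in capitals. The LINC00493 window, now listed for SMIM26, is chr20:18567182-18567481 on the plus strand. The LINC00152 window, listed for CYTOR, is chr2:87455177-87455476 on the plus strand. The LINC00657 window, listed for NORAD, is chr20:36050911-36051210 on the minus strand. The LINC00116 window, listed for MTLN, is chr2:110212498-110212797 on the minus strand.
LINC00493: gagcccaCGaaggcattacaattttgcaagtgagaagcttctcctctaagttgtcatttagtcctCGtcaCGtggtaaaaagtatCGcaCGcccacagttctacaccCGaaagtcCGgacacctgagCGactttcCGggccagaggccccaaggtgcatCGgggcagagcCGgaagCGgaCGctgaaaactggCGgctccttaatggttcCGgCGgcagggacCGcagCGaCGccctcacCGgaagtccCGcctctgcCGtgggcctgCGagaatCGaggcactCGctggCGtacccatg
LINC00152: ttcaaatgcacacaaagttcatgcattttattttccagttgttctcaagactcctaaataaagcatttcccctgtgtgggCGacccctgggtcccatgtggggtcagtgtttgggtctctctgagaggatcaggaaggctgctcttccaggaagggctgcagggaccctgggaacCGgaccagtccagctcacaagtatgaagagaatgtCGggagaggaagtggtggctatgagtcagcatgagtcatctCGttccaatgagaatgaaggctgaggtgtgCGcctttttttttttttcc
LINC00657: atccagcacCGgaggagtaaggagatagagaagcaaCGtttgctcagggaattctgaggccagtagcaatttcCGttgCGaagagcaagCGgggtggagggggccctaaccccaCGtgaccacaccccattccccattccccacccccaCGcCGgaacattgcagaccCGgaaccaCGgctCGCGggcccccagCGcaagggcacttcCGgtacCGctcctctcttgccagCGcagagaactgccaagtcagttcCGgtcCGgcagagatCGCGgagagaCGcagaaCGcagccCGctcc
LINC00116: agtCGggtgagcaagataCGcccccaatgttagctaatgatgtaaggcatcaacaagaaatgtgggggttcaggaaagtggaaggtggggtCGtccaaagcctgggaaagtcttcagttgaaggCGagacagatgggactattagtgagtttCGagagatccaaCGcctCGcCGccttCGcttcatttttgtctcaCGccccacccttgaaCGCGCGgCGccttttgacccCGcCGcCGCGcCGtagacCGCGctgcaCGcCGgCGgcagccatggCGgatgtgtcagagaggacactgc
LINC00493 holds 26 CG dinucleotides, LINC00657 23 and LINC00116 25. LINC00152 holds 5.

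In the HCT116 libraries most LINC-named loci gave little or no RNA, and a few gave as much as a well expressed messenger RNA. At a threshold of 1 FPKM in both libraries, 26 of 330 loci were expressed, or 7.88%. The same threshold was passed by 27.9% of all 51609 symbols with a value in both libraries and by 57.3% of 19022 protein-coding symbols. Of 712 symbols named as antisense RNAs, 78 passed it, or 11.0%. Another 4 loci reached 1 FPKM in PF only and 9 in PJ only, and 291 were under it in both. The loci were fewer at every higher step. At 10 FPKM or more in both libraries there were 5, and at 30 FPKM or more there were 3.

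**Figure D1:**
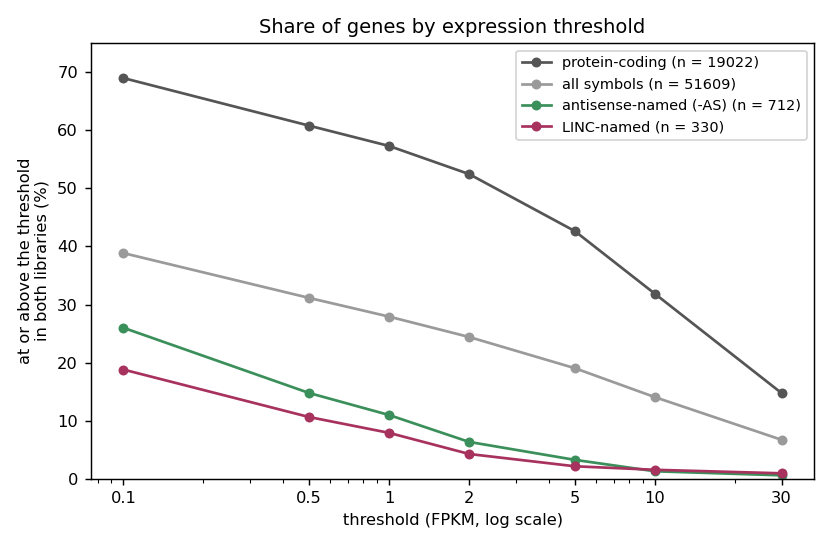
Share of genes (y axis, percent) at or above an FPKM threshold in both libraries (x axis, log scale) for the LINC-named loci, antisense-named genes, all symbols and protein-coding genes. At 1 FPKM the LINC-named loci stood at 7.88% and protein-coding genes at 57.3%.

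At the low end, 67 loci (20.3%) were listed at 0 in both libraries, 32 were above 0 in 1 library only, and 231 were above 0 in both. Being listed at 0 was no more frequent than among all symbols, of which 27.0% were at 0 in both, but more frequent than among protein-coding symbols, at 5.45%. The median locus stood at 0.00373 FPKM in PF and 0.00244 FPKM in PJ. The medians of all symbols were 0.0254 FPKM in PF and 0.0227 FPKM in PJ, and those of protein-coding symbols 3.26 and 3.92 FPKM. Summed over the loci, the level was 289 FPKM in PF and 372 FPKM in PJ. The 4 loci whose promoters are printed above held 52.4% of that sum in PF and 60.1% in PJ. In PF the values of LINC00152, LINC00657 and LINC00116 lay above their own upper bounds, so these shares are uncertain.

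LINC00493 (ENSG00000232388.1, hg19 chr20:18548064-18550207) had the highest mean. It codes for SMIM26, a small integral membrane protein of mitochondria. Its level was 43.7 FPKM in PF, with bounds of 39.6 and 47.7, and 81.2 FPKM in PJ, with bounds of 75.6 and 87.0. PJ was above PF and the bounds did not meet. The mean lay at the 85.8 percentile of the symbols expressed in both libraries. Its nearest protein-coding gene, SEC23B, a coat protein of vesicles leaving the endoplasmic reticulum, lies 6004 bp away and was at 41.7 and 47.3 FPKM in PF and PJ.

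LINC00152 (ENSG00000222041.5, hg19 chr2:87754887-87906324), now named CYTOR for a role in the cytoskeleton, was at 39.0 FPKM in PF and 59.0 FPKM in PJ. Both values lie above their own deposited upper bounds, 27.5 in PF and 42.3 in PJ, so the bounds cannot serve as its error. Of its longest transcript, 29.99% is found at 99.3% identity in MIR4435-2HG, another gene of chromosome 2, and reads from that stretch could have been counted for either. The nearest protein-coding gene, PLGLB2, 139592 bp away, was at 0.0844 and 0.281 FPKM.

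LINC00657 (ENSG00000260032.1, hg19 chr20:34633544-34638882) is NORAD, an abundant cytoplasmic RNA that binds PUMILIO proteins and is known for keeping chromosome number stable. It was at 49.9 FPKM in PF and 33.7 FPKM in PJ, the only locus of these 4 that was lower in PJ. The PF value was above its own upper bound of 49.5, and the PJ bounds were 31.8 and 34.1. A stretch matching 86.2% of its transcript at 95% identity or more is annotated in OVCH1-AS1, so its level is uncertain. CNBD2, 14921 bp to its left, was at 0.0985 and 0.139 FPKM, and EPB41L1, 40543 bp to its right, at 22.4 and 23.3 FPKM.

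LINC00116 (ENSG00000175701.6, hg19 chr2:110969106-111002997) codes for mitoregulin, MTLN, a microprotein of the inner mitochondrial membrane. It was at 19.1 FPKM in PF and 49.4 FPKM in PJ, and both values exceeded their upper bounds, 13.8 and 32.0. As for LINC00152, its bounds cannot serve as its error.

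**Figure D2:**
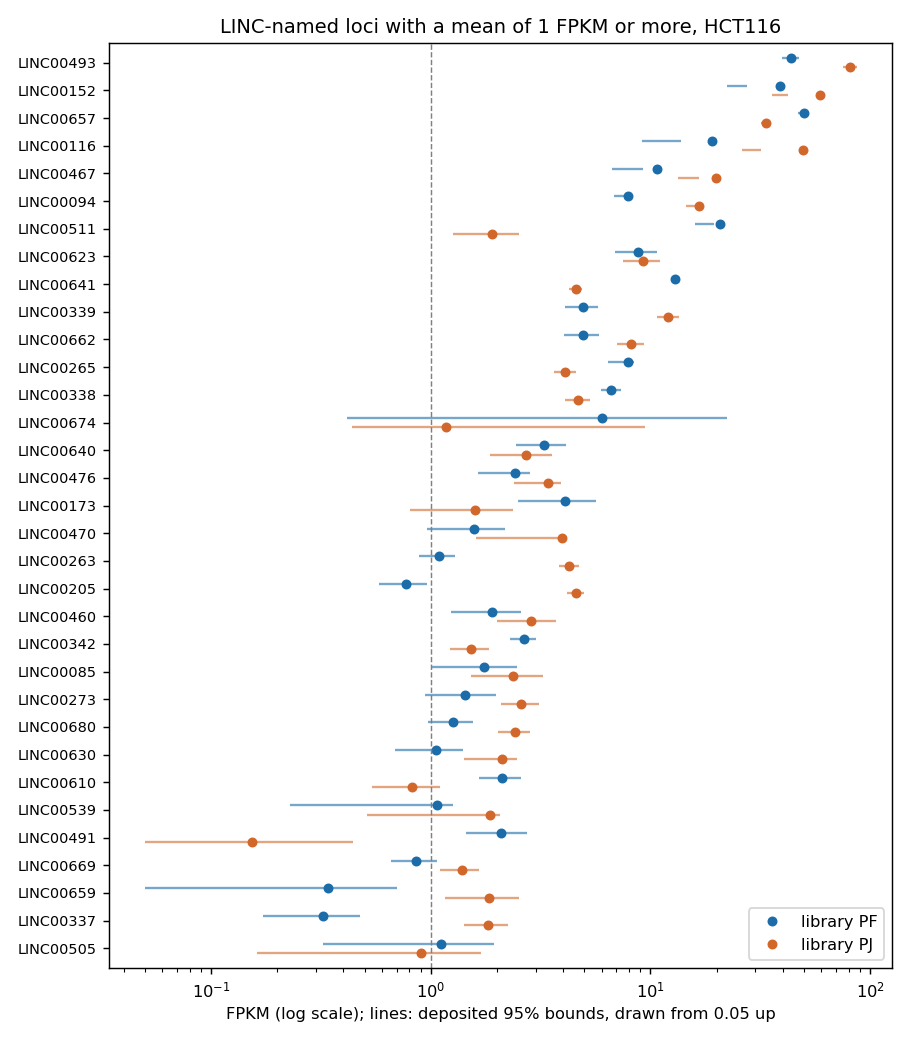
FPKM (x axis, log scale) of the 33 LINC-named loci with a mean of 1 FPKM or more, ordered by mean, in PF (blue) and PJ (orange). Points are deposited values and lines the deposited 95% bounds of each library on its own. Of the 33 loci, 27 lie inside their bounds in both libraries, and 24 have bounds that do not meet between the libraries. The bounds do not measure how far cultures differ.

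The next 11 loci by mean ranged from 1.18 to 20.6 FPKM. LINC00467 (hg19 chr1:211556145-211605878), an RNA studied in several cancers, was at 10.7 FPKM in PF and 19.8 FPKM in PJ, both above their own upper bounds of 9.26 and 16.6. TRAF5, a signal adaptor of tumour necrosis factor receptors 7856 bp away, was at 3.61 and 6.74 FPKM. LINC00094 (hg19 chr9:136890561-136895581), now BRD3OS, was at 7.91 and 16.6 FPKM. Its span overlaps BRD3, a reader of acetylated histones, at 10.2 and 8.15 FPKM. PJ was above PF at LINC00094 and below it at BRD3. The labels do not say that the libraries kept the strand of the RNA, so reads from a stretch that overlapping genes share may not be told apart. Overlap here is of whole spans, introns included, and overlap of exons was not examined.

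LINC00623 (hg19 chr1:144275918-144341756) was nearly level, at 8.79 FPKM in PF and 9.25 FPKM in PJ. RP3-377D14.1, its nearest protein-coding gene at 51436 bp, was at 5.82 and 6.18 FPKM. LINC00662 (hg19 chr19:28175488-28284848), whose nearest protein-coding gene, UQCRFS1, a subunit of respiratory complex III, lies 1413324 bp away at 76.6 and 85.1 FPKM, was at 4.95 and 8.20 FPKM. LINC00338 (hg19 chr17:75082798-75091068) is SNHG20, a small nucleolar RNA host gene. It was at 6.65 and 4.70 FPKM, and its span overlaps SEC14L1, at 13.6 FPKM in PF and 23 FPKM in PJ, and SCARNA16. LINC00640 (hg19 chr14:51800111-51832275) was at 3.28 and 2.71 FPKM, with TMX1, a thioredoxin-related membrane protein, 77351 bp away at 28.4 and 33.3 FPKM.

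Differences between the libraries were described on the scale of log2(FPKM + 1), PJ minus PF, for the 33 loci with a mean of 1 FPKM or more. On that scale 6 loci were at least 2-fold higher in PJ, 18.2% of the 33 beside 10.4% of all symbols past the same filter. Another 4 were at least 2-fold lower, 12.1% beside 5.22% of all symbols. The median log2 ratio was 0.42, with 21 loci higher in PJ and 12 lower, beside a median of 0.22 over all symbols, of which 10359 were higher and 5377 lower, a like balance. Dividing PJ by 1.19, the median PJ to PF ratio of symbols expressed in both, left 3 loci higher and 6 lower, and the median at 0.23. Restricted to means from 1 to 10 FPKM, 8 of 26 loci (30.8%) and 18.5% of 7380 symbols were 2-fold apart in either direction. These shares describe a pair of libraries, and whether they differ was not tested.

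LINC00511 had the largest difference on the log2(FPKM + 1) scale. This RNA has been studied in several cancers and spans hg19 chr17:70319264-70636611, between SLC39A11, a zinc transporter, and SOX9, a transcription factor of the intestinal crypt. It was at 20.6 FPKM in PF and 1.89 FPKM in PJ, 10.9-fold higher in PF, with a log2 ratio of -2.90. The bounds were 16.0 and 19.6 in PF, below the value itself, and 1.26 and 2.53 in PJ. Its span overlaps 3 other rows, 2 of them by 1000 bp or more. Without strand, reads from a shared stretch may not be told apart, and overlap of exons was not examined. SLC39A11, 5476 bp away, was at 25.2 and 20.7 FPKM, so PF and PJ were near each other there. SOX9, 196702 bp away, was at 1.37 FPKM in PF and 5.56 FPKM in PJ, higher in the library where LINC00511 was lower.

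LINC00491 (hg19 chr5:101944860-102007263) was at 2.09 FPKM in PF, with bounds of 1.45 and 2.73, and 0.154 FPKM in PJ, with bounds of 0 and 0.441. By the plain ratio of FPKM it differed more than LINC00511, 13.6-fold, and on the log2(FPKM + 1) scale less, at -1.42. Its span overlaps that of LINC00492, so the same limit of strand applies. PAM, an enzyme of peptide amidation 82421 bp away, was at 159 and 175 FPKM. LINC00641 (hg19 chr14:21668238-21675059) was at 12.98 FPKM in PF, with bounds of 12.5 and 13.6, and 4.57 FPKM in PJ, with bounds of 4.26 and 4.89. HNRNPC, an abundant nuclear RNA-binding protein 2235 bp away, was at 467 and 434 FPKM. At both loci PF was higher and the neighbour was nearly level. LINC00674 (hg19 chr17:66098049-66111659) was at 6.03 and 1.18 FPKM, but its bounds ran from 0.414 to 22.4 in PF and from 0.438 to 9.48 in PJ and overlapped widely. Of its transcript, 50% matches SMURF2 at 95% identity or more.

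LINC00173 and LINC00265 were the next lower in PJ and stayed within 2-fold on this scale. LINC00173 (hg19 chr12:116971227-116974323) was at 4.07 FPKM in PF and 1.59 FPKM in PJ, with a log2 ratio of -0.97, and RP11-809C9.2, 11587 bp away, at 0.270 and 0.0912 FPKM. LINC00265 (hg19 chr7:39773231-39834216) was at 7.93 and 4.10 FPKM, with a log2 ratio of -0.81, and 75.7% of its transcript is matched by the pseudogene GTF2IP13. RALA, a small GTPase 25507 bp from LINC00265, was at 22.7 and 28.4 FPKM.

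Among the 6 loci higher in PJ, LINC00205 (hg19 chr21:46713200-46717269) differed most. It was at 0.769 FPKM in PF, with bounds of 0.579 and 0.959, and 4.58 FPKM in PJ, with bounds of 4.18 and 4.99, a 5.96-fold difference. POFUT2, an enzyme that adds fucose to secreted proteins 5386 bp away, was at 6.84 and 11.7 FPKM. LINC00263 (hg19 chr10:102133372-102143125), now OLMALINC, was at 1.09 FPKM in PF and 4.27 FPKM in PJ. SCD, the stearoyl-CoA desaturase that makes monounsaturated fatty acids, lies 8780 bp from it and was at 220 and 212 FPKM.

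LINC00339 (hg19 chr1:22351681-22357716) was at 4.92 FPKM in PF, with bounds of 4.08 and 5.77, and 12.1 FPKM in PJ, with bounds of 10.8 and 13.4. It lies between CELA3A, a pancreatic elastase at 0.00570 and 0.0333 FPKM, and CDC42, a GTPase of cell polarity 21403 bp away at 96.3 and 116 FPKM. LINC00659 (hg19 chr20:61405480-61406764) was at 0.341 FPKM in PF and 1.84 FPKM in PJ. NTSR1, the neurotensin receptor 11356 bp away, went the other way, at 32.8 and 11.6 FPKM. LINC00337 (hg19 chr1:6296300-6299504) was at 0.324 and 1.82 FPKM. LINC00116, described above, was the sixth, with a log2 ratio of 1.33. At LINC00205, LINC00263, LINC00339, LINC00659 and LINC00337 the bounds of the libraries did not meet. Those of LINC00116 were not used, because both its values lie above them.

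The libraries also differed in genes of the epithelium. All 8 of the listed colon epithelial genes passed the threshold of 1 FPKM in PF and PJ, and their summed level was 1632 FPKM in PF and 914 FPKM in PJ. CDH1, the epithelial cadherin, was at 21.9 FPKM in PF and 1.80 FPKM in PJ, and ELF3, an epithelial transcription factor, at 76.3 and 1.02 FPKM. These were the steepest falls of the list, named after their values were seen, and its members did not all go one way: KRT19, a keratin, was at 306 FPKM in PF and 325 FPKM in PJ, and CLDN3, a tight junction protein, at 4.58 and 5.47 FPKM. Of fibroblast genes 1 of 4 passed, COL1A1 at 7.28 and 2.93 FPKM, and the list summed to 7.43 and 3.26 FPKM. None of 3 immune, 2 endothelial or 2 hepatocyte genes passed. The part of these differences in the values of the loci was not tested.

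Library differences of the loci showed little relation to those of the nearest protein-coding gene. For 24 loci where both had a mean of 1 FPKM or more, the log2 ratios of locus and neighbour had a Pearson correlation of 0.01 and a Spearman correlation of 0.07 across loci. All points share the same 2 libraries, so this is a description. The ratios had the same direction in 13 of 24 pairs, and 1 of the 24 neighbours, NTSR1, was 2-fold apart. The nearest gene was itself expressed at 18 of the 26 expressed loci (69.2%) and at 162 of the 304 others (53.3%). The median gap was 15271 bp at expressed loci and 39164 bp at the others.

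**Figure D3:**
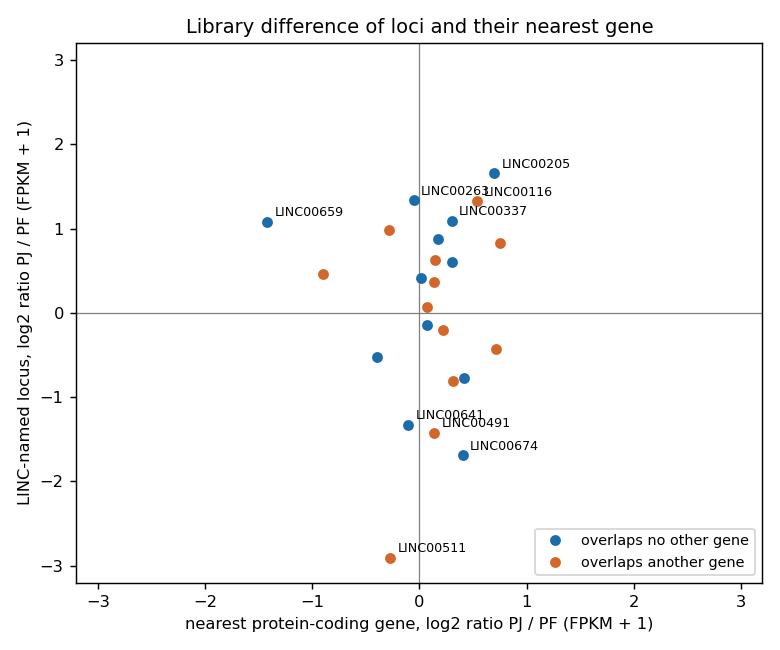
Library difference of each LINC-named locus (y axis) against that of its nearest protein-coding gene (x axis), both as log2 ratio of PJ to PF at FPKM + 1, for 24 loci. Points spread up and down while staying near 0 on the x axis, with LINC00511 lowest and LINC00659 farthest left.

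Loci that start beside a coding gene were expressed in small numbers too. Of 37 loci whose start lay within 5000 bp of a protein-coding span, 4 were expressed (10.8%), and of 260 farther ones 20 were (7.69%). In 6 cases the locus starts within 1000 bp of a coding gene on the opposite strand, head to head. Only the 297 loci with a known strand were searched, and loci that start well inside the coding gene were not counted. All 6 coding partners passed 1 FPKM in PF and PJ, beside 57.3% of protein-coding symbols. None of the 6 loci did, beside 7.88% of all 330 loci, and 6 are too few to be set apart from the rest. The locus of these 6 with the highest level was LINC00337, now ICMT-DT, with 0.324 and 1.82 FPKM, whose start is 268 bp from that of ICMT, a methyltransferase of prenylated proteins at 54.5 and 67.3 FPKM. LINC00449, 365 bp from TM9SF2, was at 0.158 and 0.397 FPKM beside 50.6 and 55.4 FPKM. LINC00677, 435 bp from TNFAIP2, was listed at 0 in PF and at 0.163 FPKM in PJ. LINC00441, 90 bp from the retinoblastoma gene RB1 at 10.2 and 10.6 FPKM, was at 0.00633 and 0.0276 FPKM. LINC00167, 103 bp from PRDM10, was at 0.0365 and 0.0188 FPKM, and LINC00637, 131 bp from PPP1R13B, at 0.00883 and 0.00580 FPKM.

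Although named intergenic, 123 of the 330 loci overlap another row of the tables, 84 of them by 1000 bp or more and 14 a protein-coding row. Of the overlapping loci 15 were expressed (12.2%), and of the 207 others 11 (5.31%). Of the 14, 3 were expressed, LINC00094, LINC00338 and LINC00476. LINC00476, now ERCC6L2-AS1, was at 2.42 and 3.41 FPKM. Its start lies inside the span of ERCC6L2, a DNA repair helicase at 11.8 and 13.1 FPKM. Without strand, the share of these values that comes from the overlapping gene is unknown. Expressed loci were longer, with a median span of 14520 bp beside 8958 bp and a median spliced length of 2416 bases (24 loci) beside 1419 bases (273 loci). The median number of exons was 3 in both.

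Promoter windows of expressed loci held more CG dinucleotides than those of the other loci. A RefSeq promoter was found for 214 loci. The ratio of observed to expected CG dinucleotides, which is low where methylation has eroded CG over evolution and high in CpG islands, had a median of 0.644 over 22 expressed loci and 0.279 over 192 others. It was 0.6 or more in 13 of 22 expressed loci (59.1%) and 38 of 192 others (19.8%), beside 48.9% of 35116 promoters of all genes. Read the other way, 13 of 51 loci at 0.6 or more were expressed (25.5%), and 9 of 163 under it (5.52%).

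**Figure D4:**
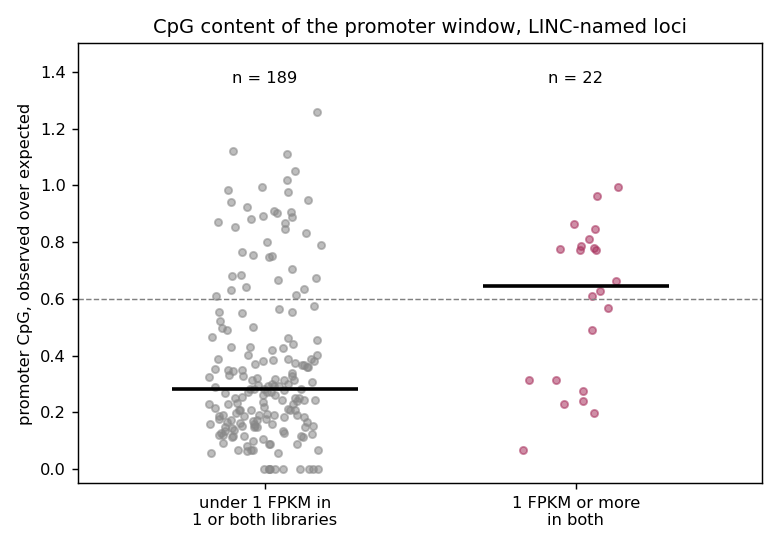
Observed over expected CG ratio of the 300-base promoter window (y axis) for loci at 1 FPKM or more in both libraries and for the others; each point is a locus, the bars are medians, and loci on Y are not drawn. Most points of the 22 expressed loci lie above the dashed line at 0.6, and most of the others below it.

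A further 3 windows, chosen after the values were seen, show the locus with the largest log2 ratio and an exception on each side. LINC00511, expressed in both libraries, lies at chr17:72640423-72640722 on the minus strand of GRCh38.p14, with 35 CG dinucleotides and a ratio of 0.786. LINC00640, at chr14:51333143-51333442 on the plus strand, had 1 CG and the lowest ratio of the expressed loci, 0.0672. LINC00261, at chr20:22578593-22578892 on the minus strand, had a ratio of 0.79 with 8 CG dinucleotides and was listed at 0 in both libraries. CG dinucleotides are in capitals.
LINC00511: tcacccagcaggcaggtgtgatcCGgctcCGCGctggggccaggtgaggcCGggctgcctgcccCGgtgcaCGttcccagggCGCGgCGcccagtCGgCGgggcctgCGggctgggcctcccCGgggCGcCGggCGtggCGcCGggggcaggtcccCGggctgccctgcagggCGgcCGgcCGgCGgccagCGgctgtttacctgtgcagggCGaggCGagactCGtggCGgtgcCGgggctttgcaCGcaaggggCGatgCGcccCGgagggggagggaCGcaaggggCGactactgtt
LINC00640: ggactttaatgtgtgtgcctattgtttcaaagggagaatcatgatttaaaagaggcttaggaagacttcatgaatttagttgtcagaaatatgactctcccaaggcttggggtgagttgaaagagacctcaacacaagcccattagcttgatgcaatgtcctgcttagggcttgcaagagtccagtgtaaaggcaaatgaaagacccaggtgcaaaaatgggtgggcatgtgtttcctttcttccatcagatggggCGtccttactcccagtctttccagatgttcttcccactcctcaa
LINC00261: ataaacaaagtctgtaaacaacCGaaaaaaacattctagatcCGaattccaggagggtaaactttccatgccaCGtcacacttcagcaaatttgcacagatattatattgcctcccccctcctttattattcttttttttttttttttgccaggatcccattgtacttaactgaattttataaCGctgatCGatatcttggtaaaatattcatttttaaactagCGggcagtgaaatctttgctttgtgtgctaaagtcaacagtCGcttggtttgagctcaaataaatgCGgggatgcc
LINC00261 is an RNA of endoderm next to FOXA2, a pioneer transcription factor of endoderm, which was also listed at 0 in PF and PJ.

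The placeholder names hide different kinds of gene. By identifier, GENCODE release 29 lists 237 of the loci as intergenic noncoding RNAs, of which 13 were expressed. It lists 16 as protein-coding, of which 4 were expressed, LINC00493, LINC00116, LINC00094 and LINC00085. LINC00085, now SPACA6, a sperm membrane protein of fertilisation, was at 1.74 and 2.38 FPKM. Of the 19 loci listed as antisense 0 were expressed at this threshold. At 49 loci the current symbol differs from the LINC name in the tables. Some moved to another LINC number, as LINC00422 did, or to a bare identifier, as LINC00515 did. Of the 49 loci 9 were expressed (18.4%), beside 15 of 245 that kept the name (6.12%) and 2 of 36 without a current name.

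Loci with names linked to microproteins were described as a list. Of 11 names 7 are in the tables, and 3 were expressed in both libraries, LINC00493, LINC00116 and LINC00094. Of all 330 loci 7.88% were expressed, and of all symbols 27.9%. The list was chosen with earlier results of these data known, so its share is no result about microprotein genes. LINC00087, now SMIM10L2B, reached 1.02 FPKM in PJ and stood at 0.177 FPKM in PF; FAM127B, 42831 bp away, was at 53.2 FPKM in PF and 63.3 FPKM in PJ. The lowest was LINC00675, at 0.00374 and 0.00148 FPKM, with PIRT, 19441 bp away, at 0.00185 and 0.00165 FPKM. The list median was a mean of 0.599 FPKM.

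Of 24 loci studied in cancer 16 are in the tables. Expressed in both libraries were 6, LINC00152, LINC00657, LINC00467, LINC00511, LINC00460 and LINC00662, and the list median was a mean of 0.548 FPKM. The share over all 330 loci was 7.88%, and over all symbols 27.9%. This list too was chosen with earlier results known, so its share is no result about RNAs studied in cancer. LINC00460 (hg19 chr13:107028911-107030565) was at 1.90 FPKM in PF and 2.87 FPKM in PJ with overlapping bounds, and EFNB2, the ephrin ligand 111527 bp away, at 6.87 and 6.96 FPKM. LINC00346 was at 0.539 and 1.14 FPKM and LINC00337 at 0.324 and 1.82 FPKM, each past the threshold in PJ only. The bounds of LINC00346 overlapped, from 0.150 to 0.862 in PF and from 0.467 to 1.44 in PJ. ANKRD10, 8724 bp from LINC00346, was at 36.9 FPKM in PF and 76.4 FPKM in PJ, higher in the same library as the locus. LINC00261 was the lowest, listed at 0.

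Loci whose span holds a row with a MIR name were 5, and none passed 1 FPKM in both. LINC00645 overlaps a microRNA row under another form of name, hsa-mir-3171, with a PF level of 0.00585 FPKM and a listed 0 in PJ. The mature microRNAs of 3 of them are shown because these families act in differentiation; the sequences are from the RefSeq table, 5′ to 3′, with the seed, bases 2 to 8, in capitals. LINC00478, now MIR99AHG, holds let-7c, miR-99a and miR-125b, LINC00472 holds miR-30a and miR-30c, and LINC00461 holds miR-9.
hsa-let-7c-5p: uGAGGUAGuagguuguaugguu
hsa-miR-99a-5p: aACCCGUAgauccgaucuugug
hsa-miR-125b-5p: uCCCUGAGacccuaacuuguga
hsa-miR-30a-5p: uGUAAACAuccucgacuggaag
hsa-miR-30c-5p: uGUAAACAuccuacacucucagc
hsa-miR-9-5p: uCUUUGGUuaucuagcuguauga
The miR-30a and miR-30c seeds are identical, and the others differ from each other. The host of the let-7c cluster was at 0.000506 FPKM in PF and 0.000492 FPKM in PJ, LINC00472 at 0.000687 and 0.000397 FPKM, and LINC00461 at 0.00139 and 0.0143 FPKM. These values are of the host RNA, and the mature microRNAs were not measured. LINC00669, now MIR924HG, was the highest, at 0.861 and 1.38 FPKM. The MIR row in its span is MIR5583-1, which lies on the opposite strand. LINC00599, which holds miR-124, was listed at 0. CELF4, an RNA-binding protein 1640887 bp from LINC00669, was at 0.0960 and 0.0177 FPKM.

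The loci were unevenly spread over the genome. Chromosome 13 holds 91 of the 330, or 27.6%, against 2.24% of all symbols, and chromosome 21 holds 29, or 8.79%, against 1.27%. On chromosome 13, 2 loci were expressed, LINC00460 and LINC00539, and 35 were listed at 0 in both libraries. Over all 330 loci, 67 were listed at 0 in both (20.3%). LINC00539 passed narrowly, at 1.07 FPKM in PF and 1.86 FPKM in PJ, with lower bounds of 0.229 and 0.511. Its span overlaps LINC00422 and MIPEPP3. Of the 239 loci elsewhere 24 were expressed (10.0%). Protein-coding genes of chromosome 13 were not low as a group, with 180 of 309 expressed (58.3%). A CG ratio of 0.6 or more was found in 8 of 58 chromosome 13 loci with a promoter, beside 51 of 214 over all chromosomes. On chromosome 21 none of 29 loci passed 1 FPKM in both; LINC00205 passed it in PJ alone.

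**Figure D5:**
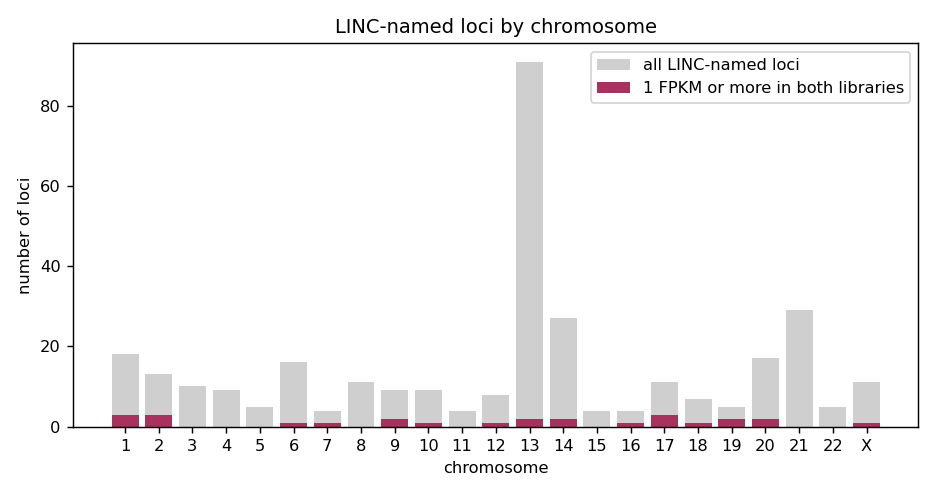
Number of LINC-named loci on each chromosome (y axis, grey bars) and of those at 1 FPKM or more in both libraries (red bars), with Y not drawn. Chromosome 13 has the tallest grey bar, 91 loci, with 2 expressed.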

How the data were processed

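Both tables were deposited by the authors with 1 FPKM per gene, its lower and upper 95% bounds and a status, per the file headers. The submitters' processing notes list TopHat2 2.0.8b, TopHat, Cufflinks and the build hg19. A version of Cufflinks and the gene annotation behind the rows were not given in the sources used here. FPKM divides by a modelled transcript length and by the library total, so a few abundant RNAs can shift all other values, and at several loci the value lay outside its own bounds.

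Values were summed per symbol, and status FAIL was treated as missing; no LINC-named row had it. The position is that of the row with the highest mean, in hg19 with starts counted from 1. Gene type, strand and spliced length came from GENCODE 29 by identifier (297 of 330 loci), without its coordinates. Promoters (250 bases before to 50 after the start) and microRNAs came from RefSeq on GRCh38.p14, and current names from a gene name table. Near copies were sought with BLAST 2.17.0 among GENCODE transcripts, at 95% identity or more over 50% or more of the transcript, for 29 loci; 4 had one. The pseudocount was 1. The code for the counts was tested on simulated data, which says nothing about the error of these libraries.

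The loci, lists and rules were chosen with earlier results of these data known. The text names the 15 highest means, the 6 largest log2 ratios in each direction at a mean of 1 FPKM or more, list members past 1 FPKM in a library with the lowest of each list, and their nearest protein-coding genes, of which 1 is not reported here. Other loci and neighbours were named after their values were seen. They are LINC00085, LINC00449, LINC00677, LINC00441, LINC00167, LINC00637, LINC00476, LINC00539, the loci with a microRNA row other than LINC00669 and the second flanking genes. Alternatives changed the threshold, pseudocount, filter, scaling, overlap and distance, and used each library alone. Python 3.11.15, numpy 2.4.6, pandas 2.3.3 and matplotlib 3.10.9 were used. The normal colon libraries of the design text were not used here.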

Additional observations from a re-analysis of the deposited data

How the results depend on the processing

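Of 38 alternatives 29 kept their value within the margin set for it, with each count judged on its own. That margin was wide. The 26 expressed loci became 35 at a threshold of 0.5 FPKM and 18 with both lower bounds at 1 FPKM or more, and both counted as kept. So did the 6 loci higher in PJ becoming 8, and the 4 lower becoming 6, with a pseudocount of 0.1. The correlation of library ratios with the nearest gene, 0.01, changed sign to -0.08 with overlapping loci left out and was 0.11 within 50 kb, all near 0. The 26 expressed loci became 14 at a threshold of 2 FPKM and 11 with overlapping loci left out; with each library alone they ranged from 30 to 35. The 6 loci higher in PJ became 3 with PJ divided by the median ratio, where the 4 lower became 6, so that more loci were lower than higher. The 4 lower became 2 with overlapping loci left out. The median log2 ratio of 0.42 became 0.60 with a pseudocount of 0.1 and 0.23 with PJ divided by the median ratio. The 123 overlapping loci became 14 when only protein-coding rows counted. The 4 expressed loci starting within 5000 bp of a coding span became 2 within 1 kb, of 18 loci, and 16 within 50 kb, of 158. No paired analysis was possible because all libraries belong to 1 group. Depth is unknown, so it cannot be said how low a level these libraries could detect, and a locus listed at 0 is not shown to be silent.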

Other observations

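Of 40 loci with a RefSeq promoter that were listed at 0 in both libraries, 7 had a CG ratio of 0.6 or more. Among all 192 loci with a promoter that were not expressed in both libraries, 38 did (19.8%), a like share. The 7 loci were looked up after their values were seen. Low neighbours are common among loci not expressed in both, where the nearest protein-coding gene was expressed at 162 of 304 (53.3%). LINC00261, 2362 bp from FOXA2, and LINC00391, 6769 bp from SOX21, a transcription factor of neural progenitors, lie next to genes that were themselves listed at 0 in PF and PJ. LINC00354 and LINC00404, with ratios of 0.985 and 0.852, have SOX1, another neural transcription factor, as their nearest protein-coding gene, at 0.0169 and 0.0117 FPKM. LINC00421 has TPTE2, at 0.0322 and 0.0874 FPKM. LINC00237 and LINC00682 have expressed neighbours, PLK1S1 at 2.96 and 5.48 FPKM and TMEM33 at 25.4 and 51.0 FPKM.

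Some loci under a mean of 1 FPKM differed between the libraries by a large fold, and were picked after their values were seen. LINC00672 was at 1.21 FPKM in PF and 0.116 FPKM in PJ, and LINC00471 at 0.126 and 1.03 FPKM.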
